A study of Mus musculus with 106 samples.

Results

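The data described here are gene counts from bulk RNA sequencing of the liver of mice housed at 34 °C, a mild warm temperature close to the thermoneutral zone of the mouse, set against the liver of mice housed at room temperature (RT, 22 °C). The comparison takes the 3 liver libraries of the 34 °C group and the 3 liver libraries of its own 22 °C group, 6 of the 106 samples of the series, and was run over all genes of the count table that passed a filter on low counts. All mice were C57BL/6J males without a transgene or drug, 8 weeks old at the start, kept in pairs without nesting material on chow and a regular light cycle, and killed at 12 weeks of age after 4 weeks at 34 °C or at 22 °C. Each liver library was made from the pooled RNA of 2 mice, so the spread between libraries is a spread between pools. The columns of the table carry a group and a number, and the libraries are called here 22 °C libraries 1 to 3 and 34 °C libraries 1 to 3 after those numbers.

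At 22 °C a mouse spends energy to keep warm, and near 34 °C this cost falls away. The liver of the adult male mouse carries a set of genes that growth hormone, secreted in pulses in males and more steadily in females, keeps high or low through STAT5 and through repressors such as BCL6. Among them are the major urinary proteins (Mup), lipocalins that the liver secretes and the kidney passes into urine, where they bind volatile pheromones. The liver also activates and clears thyroid hormone through the deiodinase DIO1, makes fatty acids, bile acids and carboxylesterases, and takes up organic acids through solute carriers. These groups give the order of the results.

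The 22 °C libraries held 35843843 to 41999109 counts and the 34 °C libraries 40164033 to 46562906, and no pair of libraries was identical. The liver identity was clear in every library, with the 10 hepatocyte markers summing to 115064 to 128357 CPM (counts divided by the TMM-scaled library size and multiplied by 1e6) at 22 °C and 154548 to 165217 at 34 °C (p = 0.1 in an exact permutation test, where 3 libraries against 3 can give no smaller two-sided value). Albumin (Alb) was the largest part of that sum, with 77849, 69528 and 63363 CPM at 22 °C and 100583, 107791 and 106116 CPM at 34 °C, and its adjusted p was 0.0808. Markers of pancreas acinar cells summed to at most 0.917 CPM (6 of 9 at 0 in every library), those of adipocytes to at most 2.23 CPM and those of T cells to at most 5.6 CPM. Skeletal muscle markers summed to 13.4 CPM in 34 °C library 1 and to 1.01 to 1.60 CPM in the other 5 libraries. Cholangiocyte, endothelial, Kupffer, stellate, B cell, neutrophil, erythroid and proliferating cell markers and those of the pericentral and periportal zones had summed levels whose exact permutation p lay between 0.2 and 1. In bulk libraries such as these, fewer cells of a type and less RNA per cell cannot be told apart.

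Genes of the liver differed between 34 °C and 22 °C in both directions. Of 11179 genes tested with edgeR's quasi-likelihood F-test, 198 (1.77%) were called higher and 180 (1.61%) called lower at 34 °C, a call being an unadjusted p of at most 0.05 with a fold change above 1.5. After Benjamini-Hochberg adjustment over all genes, 43 genes (0.385%) had an adjusted p under 0.05, of which 13 were higher and 30 lower. Among these 43 the largest falls were Moxd1, Mup9 and Mup15 (log2 fold changes -7.83, -7.26 and -5.48) and the largest rises Dio3os, Hamp2 and Vldlr (3.52, 2.54 and 2.49). Moxd1, Mup9 and Mup15 had at most 18 counts in any 34 °C library. Of the 30 lower genes, 8 were Mup genes, near copies whose reads may be split between them. The smallest adjusted p was that of Slc22a7. With scaling by library size alone the split moved to 135 higher and 235 lower, and without 1 library in turn the number with an adjusted p under 0.05 ran from 6 to 45. For 1898 genes (17.0%) the 3 libraries at 34 °C did not overlap the 3 at 22 °C.

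**Figure D1:**
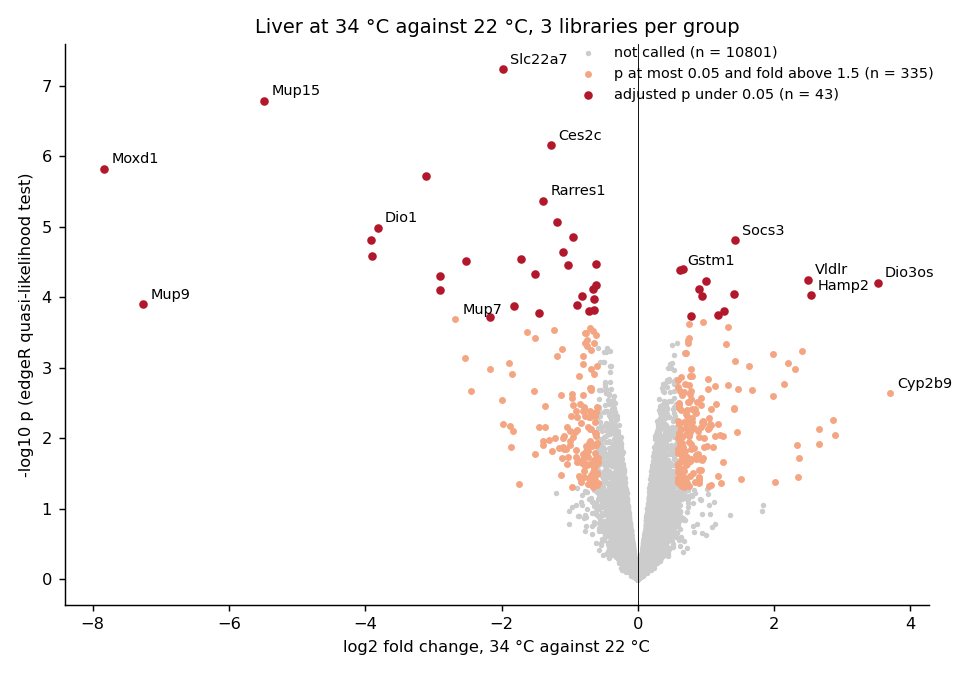
Each point is 1 of 11179 genes, with the log2 fold change at 34 °C against 22 °C on the x axis and -log10 of the unadjusted p of the quasi-likelihood test on the y axis. Red marks the 43 genes with an adjusted p under 0.05 and orange the other called genes, and the farthest points to the left are Moxd1, Mup9 and Mup15.

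The major urinary protein genes lie side by side on chromosome 4, between Mup4 and Mup21, and many are near copies of each other. A stretch of 100 coding bases, starting at base 51 of the Mup7 coding sequence (counted from the A of the start codon) or at the best matching place of the other members, shows how close they are. The sequences are those of the GENCODE M21 transcripts on GRCm38, 5′ to 3′, and capitals mark bases that differ from Mup7.
Mup7: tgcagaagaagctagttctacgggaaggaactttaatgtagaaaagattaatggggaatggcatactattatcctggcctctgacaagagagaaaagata
Mup14: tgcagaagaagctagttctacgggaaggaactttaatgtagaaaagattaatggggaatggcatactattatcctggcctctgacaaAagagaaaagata
Mup15: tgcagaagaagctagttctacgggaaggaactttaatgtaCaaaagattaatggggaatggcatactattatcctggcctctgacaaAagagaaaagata
Mup20: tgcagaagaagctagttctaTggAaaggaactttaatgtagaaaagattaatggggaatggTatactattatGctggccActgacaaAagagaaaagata
Mup3: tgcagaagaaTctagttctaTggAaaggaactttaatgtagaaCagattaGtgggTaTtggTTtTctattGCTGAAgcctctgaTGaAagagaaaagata
Mup21: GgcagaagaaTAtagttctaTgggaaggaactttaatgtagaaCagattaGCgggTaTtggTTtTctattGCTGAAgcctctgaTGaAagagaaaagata
Mup7, Mup14 and Mup15 are shown as members whose counts fell, and Mup20, Mup3 and Mup21 as the members farther in sequence. Mup14 differed from Mup7 at 1 base and Mup15 at 2, while Mup20 differed at 6, Mup3 at 19 and Mup21 at 21.

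This closeness limits what a count of 1 member means. Of the 50-base windows of the annotated transcripts (50 bases is the length of the reads), 13.3% were found in no other gene for Mup7, 8.82% for Mup14 and 14.6% for Mup12, against 86.7% for Mup3, 80.7% for Mup21 and 49.5% for Mup20. Mup2 and Mup15 had no such window in this annotation and yet carry counts in the deposited table, so reads of near copies may be split between them. The values of single members below are therefore uncertain as to which copy they came from, and the family is also given as sums.

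The counts of the near copies fell together. Of the 22 members listed, 20 are in the table and 15 passed the filter on low counts, of which 11 were called lower, 8 of them with an adjusted p under 0.05, and none higher. Their median log2 fold change was -2.54, beside 0.0062 over all genes tested, and their 11 calls of 15 compare with the 1.61% of all genes called lower. The count was 11 to 13 under the other scalings, filters and tests and 11 or 12 without each library in turn. With the dispersion shared over 4 tissues it was 7. In that fit Mup2, Mup9, Mup11 and Mup13 had no value, and no other called member lost its call. Among the 11 tested members within 2 bases of Mup7 over the stretch above, 10 were called lower, with Mup10 the exception (20.5, 15.2 and 12.2 CPM at 22 °C and 9.21, 13 and 11.3 CPM at 34 °C). Summed, these 11 had 2223, 2735 and 2590.3 CPM at 22 °C and 367, 167 and 643 CPM at 34 °C, a mean 6.41-fold lower at 34 °C. The 4 tested members farther from Mup7 summed to 15137, 17575 and 18305 CPM at 22 °C and 16038, 12650.1 and 15284 CPM at 34 °C, and these groups overlap. With every Mup gene summed into 1 feature and refitted, the log2 fold change was -0.38 ± 0.12 (SE), with an unadjusted p of 0.0139 and an adjusted p of 0.294.

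Mup7 (ENSMUSG00000073842, chr4:60066469-60070475, minus strand, GRCm38) had the highest counts of the near copies, with 1620.3, 2016 and 1885 CPM at 22 °C and 257, 112 and 492 CPM at 34 °C. Every 34 °C library lay below every 22 °C library, and library 2 was the lowest of the 34 °C libraries (log2 fold change -2.68 ± 0.44 (SE), adjusted p = 0.0523). Mup14 (ENSMUSG00000073830, chr4:61300023-61304000) had 435, 464 and 492 CPM at 22 °C and 62.6, 26 and 97.9 CPM at 34 °C (log2 fold change -2.90 ± 0.39 (SE), adjusted p = 0.0266). Mup15 (ENSMUSG00000096674, chr4:61435790-61439743) had 9.59, 15.9 and 20.3 CPM at 22 °C and 0.339, 0.219 and 0.472 CPM at 34 °C (log2 fold change -5.48 ± 0.37 (SE), adjusted p = 0.000913), and at 34 °C these are 14, 10 and 18 counts. Mup9 was near the limit of detection at 34 °C, with 0, 2 and 2 counts against 40, 189 and 407 at 22 °C, so its fitted change of -7.26 depends on the prior count. Mup1, Mup2, Mup8, Mup11, Mup12 and Mup13 had log2 fold changes from -3.91 (Mup13) to -1.82 (Mup12), and none of their 34 °C libraries overlapped those at 22 °C.

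Of the members farther in sequence, Mup20, which encodes the male pheromone darcin, was called lower, with 5781, 7094 and 7695 CPM at 22 °C and 4596, 2922 and 5165 CPM at 34 °C (log2 fold change -0.70 ± 0.20 (SE), unadjusted p = 0.0073, adjusted p = 0.235), and lost its call without 34 °C library 2. Mup3 (ENSMUSG00000066154, chr4:62083476-62087342) had 9152, 10198 and 10260.2 CPM at 22 °C and 11169, 9515 and 9815 CPM at 34 °C, and its log2 fold change was 0.043 ± 0.10. Mup21 had 193, 271 and 335 CPM at 22 °C and 261, 203 and 292 CPM at 34 °C and Mup5 had 11.1, 12.5 and 14.1 CPM at 22 °C and 11.9, 10.4 and 12.4 CPM at 34 °C. For these 3 genes the groups overlapped and no call was made. Mup4, Mup6, Mup16, Mup17 and Mup19 were below the filter, with at most 23 counts in any library.

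**Figure D2:**
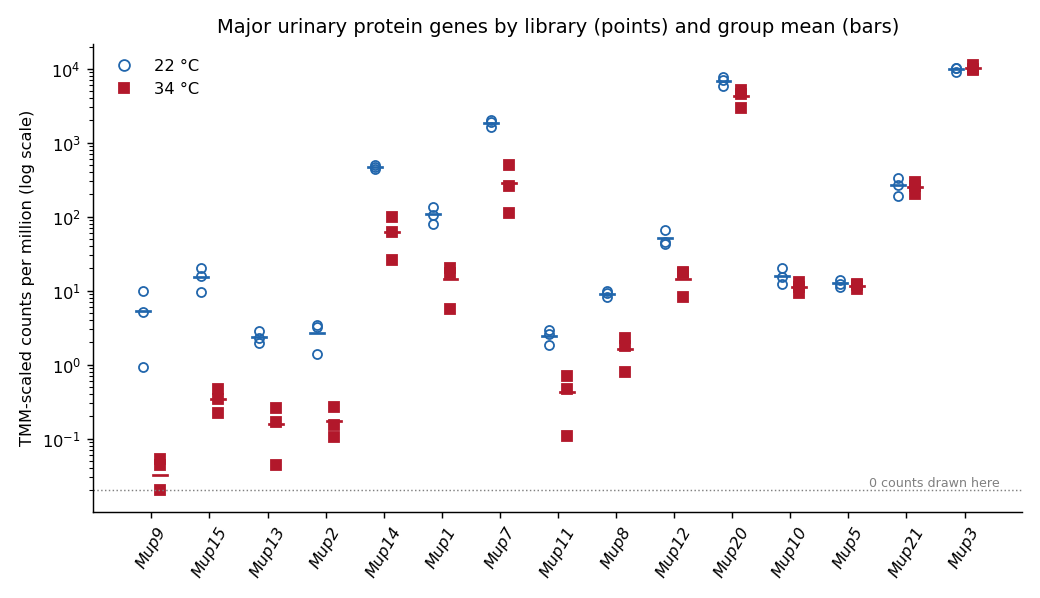
TMM-scaled CPM on a log axis for the 15 tested major urinary protein genes, ordered by log2 fold change. Open circles are the 3 libraries at 22 °C, filled squares the 3 at 34 °C and bars the group means. The 11 leftmost genes sit at 34 °C below every 22 °C library, while Mup3, Mup5, Mup10 and Mup21 overlap.

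Beyond the Mup family, part of the genes that are higher in male than in female liver fell at 34 °C, and part of those that are higher in females rose. All mice here were males, and the sex bias is textbook knowledge that was not measured. Of 26 male-biased genes tested, 11 were called lower and none higher, with a median log2 fold change of -0.41. Of 24 female-biased genes tested, 12 were called higher and 1, the leukaemia inhibitory factor receptor gene Lifr, lower (379, 436 and 400.4 CPM at 22 °C and 350.0, 199 and 240.1 CPM at 34 °C), with a median of 0.73. Over all genes 1.61% were called lower and 1.77% higher. Lifr was not called without 22 °C library 2 or 34 °C library 2 or 3. Only 2 in each list had an adjusted p under 0.05: Moxd1 and Cyp7b1 in the first, Hamp2 and Abcd2 in the second. Without 1 library in turn the first list had 9 to 13 members called lower and the second 9 to 13 called higher. With the dispersion shared over 4 tissues the second had 7, and Cyp2b9, 1 of the 12, had no value in that fit.

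Moxd1 (ENSMUSG00000020000, chr10:24223517-24302790, plus strand), a monooxygenase-like gene of male liver, had 20.4, 6.29 and 13.7 CPM at 22 °C and 0, 0.0438 and 0.131 CPM at 34 °C. In counts these are 868, 231 and 559 against 0, 2 and 5, so the transcript was close to undetected at 34 °C (log2 fold change -7.83 ± 0.69 (SE), adjusted p = 0.0042). Cyp7b1, the oxysterol hydroxylase of the alternative bile acid pathway, had 322, 336 and 355 CPM at 22 °C and 139, 74.5 and 156 CPM at 34 °C (log2 fold change -1.46 ± 0.23 (SE), adjusted p = 0.0464). Selenbp2, a selenium-binding protein gene, had 905, 1659.5 and 2025 CPM at 22 °C and 419, 134 and 742 CPM at 34 °C. The fatty acid elongase gene Elovl3 had 71.3, 135 and 207 CPM at 22 °C and 69.9, 74.4 and 29.1 CPM at 34 °C, and its groups overlapped by the values of 22 °C library 1 and 34 °C library 2 (adjusted p = 0.299). Its call was lost without 22 °C library 3.

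Bcl6, the repressor that holds female-biased genes down in male liver, had 37.6, 51.7 and 60.8 CPM at 22 °C and 13.7, 35.3 and 30.9 CPM at 34 °C (log2 fold change -0.91 ± 0.31 (SE), unadjusted p = 0.0185, adjusted p = 0.325). Obp2a, Ugt2b38, Serpina12, Cyp2u1, Nudt7 and C6 were the other male-biased genes called lower, with log2 fold changes from -1.99 to -0.70. Several of the best known male-biased genes were not called: the log2 fold changes of Cyp2d9, Cyp4a12a, Hsd3b5 and Slco1a1 were -0.41, -0.10, -0.24 and 0.12, with standard errors of 0.16, 0.16, 0.16 and 0.093.

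Among the female-biased genes, Hamp2, a relative of the iron hormone hepcidin, had 38, 53.4 and 31 CPM at 22 °C and 133, 386 and 193 CPM at 34 °C (log2 fold change 2.54 ± 0.37 (SE), adjusted p = 0.0339). Library 2 was the highest at 34 °C, and no library overlapped. Abcd2, a peroxisomal transporter of very long chain acyl-CoA, had 12.4, 6.87 and 9.95 CPM at 22 °C and 23.5, 21.5 and 21.4 CPM at 34 °C (log2 fold change 1.18 ± 0.19 (SE), adjusted p = 0.0482). The acyl-CoA thioesterase gene Acot3 had 11.5, 2.81 and 3.19 CPM at 22 °C and 30.7, 31.1 and 31.8 CPM at 34 °C, nearly the same level in the 3 libraries at 34 °C (log2 fold change 2.41 ± 0.46 (SE), adjusted p = 0.0912). Cyp2b9 had 0.259, 0.136 and 0.123 CPM at 22 °C and 0.339, 4.48 and 2.05 CPM at 34 °C, so the 34 °C libraries differed among themselves and library 1 was close to the 22 °C level (log2 fold change 3.70 ± 0.87 (SE), adjusted p = 0.163). Cyp2b10, Cyp2c38, Cyp2c39, Cyp2c69, Fmo2, Atp6v0d2 and Slc22a26 were called higher too, at log2 fold changes from 0.68 to 2.65. Cyp2a4, a steroid hydroxylase gene, was far higher in 34 °C library 3 than in all others, with 14.7, 10.7 and 6.07 CPM at 22 °C and 12.9, 17 and 134 CPM at 34 °C.

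**Figure D3:**
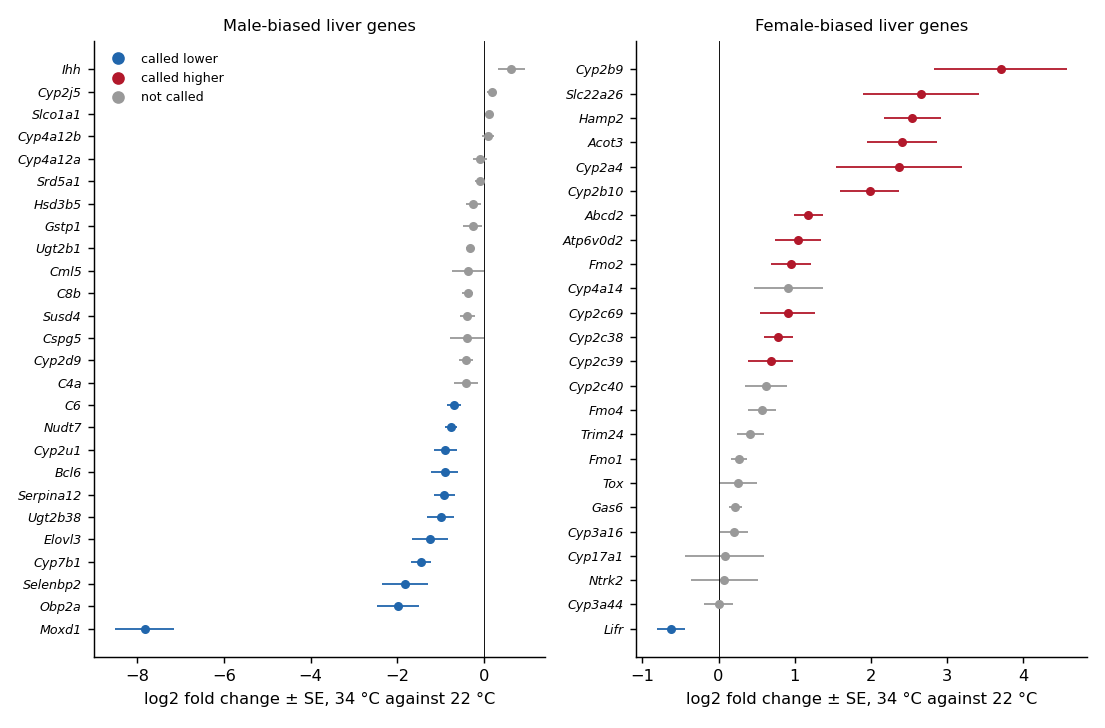
Log2 fold change at 34 °C against 22 °C with its standard error (x axis) for the tested members of the male-biased list (left) and the female-biased list (right). Blue marks the 11 male-biased genes called lower and Lifr, red the 12 female-biased genes called higher and grey the genes not called.

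Of 15 genes of growth hormone and STAT5 signalling tested, 3 were called higher and 1 lower, beside 1.77% and 1.61% of all genes, with a median log2 fold change of 0.15. Socs3, a suppressor of cytokine signalling that STAT proteins induce, had 8.67, 11.2 and 9.02 CPM at 22 °C and 20.5, 26.7 and 30.3 CPM at 34 °C (log2 fold change 1.42 ± 0.17 (SE), adjusted p = 0.0159). Prlr, the prolactin receptor, had 83, 86.9 and 65.7 CPM at 22 °C and 122, 149 and 126 CPM at 34 °C (log2 fold change 0.76 ± 0.13 (SE), adjusted p = 0.0583). Cish, another STAT5-induced suppressor, had 13, 23.4 and 9.95 CPM at 22 °C and 38.9, 15.2 and 56.3 CPM at 34 °C. Its groups overlapped, and the call was lost without 34 °C library 3. Socs2 had 11.7, 7.36 and 16.4 CPM at 22 °C and 40.6, 8.79 and 23.3 CPM at 34 °C and was not called. The count of 3 was 5 without 34 °C library 2 and 2 without 22 °C library 1 or 34 °C library 3. Stat5a was called lower, with 11.9, 9.65 and 16.6 CPM at 22 °C and 8.87, 7.7 and 6.98 CPM at 34 °C (adjusted p = 0.236), and lost its call without 22 °C library 3.

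The receptor and the main product of the pathway did not pass the test. Ghr, the growth hormone receptor, had 475 ± 41.2 CPM at 22 °C and 497 ± 16.3 CPM at 34 °C (SD, n = 3), and Igf1, the insulin-like growth factor it induces, had 491 ± 57.2 CPM at 22 °C and 524 ± 62.1 CPM at 34 °C. Their log2 fold changes were 0.065 and 0.094. Stat5b, the STAT5 form that predominates in liver, had 58.6, 56.6 and 62 CPM at 22 °C and 54.5, 53.1 and 42.2 CPM at 34 °C, with every 34 °C library below every 22 °C library but a change under 1.5-fold (log2 fold change -0.24, adjusted p = 0.469).

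The largest change in thyroid hormone genes was that of Dio1 (ENSMUSG00000034785, chr4:107291465-107307169, minus strand), the liver deiodinase that turns thyroxine into active triiodothyronine and is itself induced by it. It had 163, 167 and 197 CPM at 22 °C and 11.8, 5.03 and 20.7 CPM at 34 °C. Its mean was 176 ± 19 CPM at 22 °C and 12.5 ± 7.84 CPM at 34 °C (SD, n = 3), a 14.1-fold fall in the fit (log2 fold change -3.82 ± 0.42 (SE), adjusted p = 0.0144). Library 2 was again the lowest at 34 °C. Without each library in turn the log2 fold change stayed between -4.39 and -3.44. Gpd2, the mitochondrial glycerol-3-phosphate dehydrogenase and another gene that thyroid hormone induces, had 37.8, 32.3 and 41.6 CPM at 22 °C and 21.1, 28.5 and 15.6 CPM at 34 °C (log2 fold change -0.77 ± 0.20 (SE), unadjusted p = 0.004, adjusted p = 0.197). Serpina7, the thyroxine-binding globulin gene, had 42.1, 20.9 and 14.1 CPM at 22 °C and 63.7, 78.4 and 41 CPM at 34 °C and was called higher, with 22 °C library 1 above 34 °C library 3.

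The other 11 of the 14 thyroid hormone genes tested were not called, and the median log2 fold change of the list was -0.025. Thrb, the main thyroid hormone receptor of liver, had 31.2 ± 3.71 CPM at 22 °C and 32 ± 2.13 CPM at 34 °C (SD, n = 3). The hormone-responsive genes Thrsp, Me1 and Klf9 had log2 fold changes of 0.41 ± 0.41, -0.085 ± 0.21 and -0.02 ± 0.15. Dio3os, a transcript from the strand opposite to the deiodinase gene Dio3, which inactivates thyroid hormone, had 0.682, 0.599 and 0.0737 CPM at 22 °C and 6.04, 4.81 and 4.77 CPM at 34 °C (log2 fold change 3.52 ± 0.49 (SE), adjusted p = 0.0292). The kit marks the strand of a read, but the strand setting of the counting was not given in the sources used here, so the strand of these reads is uncertain.

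Transport and detoxification genes moved in both directions. Of 19 solute carriers for organic and dicarboxylic acids, 6 were called lower and 3 higher, beside 1.61% and 1.77% of all genes, with a median log2 fold change of -0.27. Slc22a7 (ENSMUSG00000067144, chr17:46432183-46438457), which takes up organic anions such as orotate and glutamate, had 60.5, 69.9 and 57 CPM at 22 °C and 15.9, 14.1 and 17.5 CPM at 34 °C (log2 fold change -1.98 ± 0.12 (SE), adjusted p = 0.00066). Its libraries lay close together within each group. Slc13a3, a sodium-dicarboxylate cotransporter, had 25.8, 22.5 and 20.9 CPM at 22 °C and 9.65, 11.5 and 9.1 CPM at 34 °C (log2 fold change -1.19 ± 0.13 (SE), adjusted p = 0.0139). Slc25a45, a mitochondrial carrier, had 27.1, 31.3 and 39 CPM at 22 °C and 15.8, 15.7 and 16.2 CPM at 34 °C. Slc13a5, the citrate transporter, had 3.06, 1.44 and 1.38 CPM at 22 °C and 0.436, 0.219 and 0.97 CPM at 34 °C (adjusted p = 0.231). Slc26a6 and Slc16a13 were called lower and Slc13a2, Slc25a25 and Slc16a7 higher, with log2 fold changes from -0.85 to 0.79 and adjusted p from 0.236 to 0.422. Without single libraries 4 to 7 were called lower and 1 to 3 higher, the fewest lower without 22 °C library 3 or 34 °C library 3 and the fewest higher without 22 °C library 2 or 34 °C library 2. With scaling by library size only, 1 was called higher.

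Carboxylesterases, which split ester drugs and lipids, had 3 calls downward and 2 upward, beside 1.61% and 1.77% of all genes. Ces2c had 35.9, 42.6 and 42 CPM at 22 °C and 15.5, 17 and 17.2 CPM at 34 °C (log2 fold change -1.28 ± 0.10 (SE), adjusted p = 0.0026), with narrow groups. Ces2b and Ces4a were also called lower, at -2.17 and -1.85, and Ces1b and Ces1d higher, at 0.60 and 0.75. The other 9 of 14 tested members were not called, and the median was 0.22. Ces1b lost its call without 22 °C library 3 or 34 °C library 3. Of 38 drug-metabolising genes tested, 5 were called higher and 2 lower, beside 1.77% and 1.61% of all genes, with a median of 0.24. Gstm1, a glutathione transferase, had 1648, 1596 and 1482 CPM at 22 °C and 2415, 2476 and 2363 CPM at 34 °C (log2 fold change 0.62 ± 0.082 (SE), adjusted p = 0.0242), and Mgst3 had 10.3, 10.1 and 7.74 CPM at 22 °C and 17.6, 20.7 and 17.8 CPM at 34 °C (log2 fold change 0.999 ± 0.14 (SE), adjusted p = 0.0284). Cyp2b10, a target of the receptor CAR, had 1.46, 0.872 and 0.639 CPM at 22 °C and 3.15, 5.75 and 2.86 CPM at 34 °C. Cyp2c29 and Cyp1a1 were the other calls upward, at 0.73 and 0.80. Sult5a1, a sulfotransferase, had 32.3, 27.6 and 27.2 CPM at 22 °C and 12.2, 6.87 and 11.7 CPM at 34 °C, and Cyp3a59 had 50.6, 45.8 and 41.4 CPM at 22 °C and 24.6, 29.7 and 29.8 CPM at 34 °C (adjusted p = 0.0258 and 0.0451). The count of 5 called higher became 10 without 22 °C library 1. Gstm1, at 1.53-fold close to the limit, lost its call without 22 °C library 3 and with scaling by library size only. Cyp3a11, a widely used marker of PXR activity, had 2905 ± 712 CPM at 22 °C and 3238 ± 300.0 CPM at 34 °C (SD, n = 3) and was not called.

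In bile acid synthesis and transport, 3 of 23 genes were called lower and 1 higher, beside 1.61% and 1.77% of all genes, with a median log2 fold change of 0.088. Besides Cyp7b1, Cyp8b1, which sets the share of cholic acid, had 318, 486 and 604 CPM at 22 °C and 323, 286 and 307 CPM at 34 °C, with 22 °C library 1 inside the 34 °C range. Abcb4, the phospholipid exporter of bile, had 279, 257 and 294 CPM at 22 °C and 206, 162 and 176 CPM at 34 °C. The count of 3 became 1 without 22 °C library 3 or 34 °C library 2. Slco1a4 was called higher, at 0.76. Cyp7a1, the rate-limiting enzyme of the classic pathway, had 92.6, 127 and 104 CPM at 22 °C and 109, 88.1 and 199.7 CPM at 34 °C and was not called. Rarres1, a retinoic acid responder gene, was the 1 gene called of 15 retinoid genes tested, with 47.5, 55.3 and 69.1 CPM at 22 °C and 23.1, 20.6 and 22 CPM at 34 °C (log2 fold change -1.39 ± 0.14 (SE), adjusted p = 0.00794).

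Acyl-CoA thioesterases, which free fatty acids from coenzyme A and sit in a gene cluster, made up all 4 calls upward (beside 1.77% of all genes) among 36 genes of fatty acid oxidation and PPARA targets. Besides Acot3, Acot1 had 15.7, 9.13 and 12.6 CPM at 22 °C and 21.1, 23.7 and 19.7 CPM at 34 °C. Acot2 had 2.3, 1.93 and 2.33 CPM at 22 °C and 3.76, 5.01 and 3.17 CPM at 34 °C. Acot4 had 22.6, 12.2 and 11.8 CPM at 22 °C and 24.5, 29.4 and 28.4 CPM at 34 °C. Acot1 to Acot4 are close copies, so reads may be split between them, and their adjusted p ran from 0.0912 to 0.234. Angptl4, an inhibitor of lipoprotein lipase, and Cyp4a31 were called lower, at -0.97 and -0.82, beside 1.61% of all genes. The count of 2 called lower became 5 without 22 °C library 2 or 34 °C library 1 and 1 without 22 °C library 3. Ppara itself had 372 ± 47.3 CPM at 22 °C and 337 ± 26 CPM at 34 °C (SD, n = 3), Pdk4 a log2 fold change of 0.82 ± 0.61 and Fgf21 of -1.01 ± 0.66, and none of the 3 was called. The median of the list was -0.051.

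Fatty acid synthesis genes were highest in 1 library. Of 28 genes of this group tested, 5 were called higher and none lower, beside 1.77% and 1.61% of all genes, with a median log2 fold change of 0.35, and none had an adjusted p under 0.05. Scd1, the main stearoyl-CoA desaturase, had 5719.7, 5971 and 5411 CPM at 22 °C and 7514, 17076 and 8712 CPM at 34 °C (log2 fold change 0.96 ± 0.27 (SE), unadjusted p = 0.00626, adjusted p = 0.227). Srebf1, which encodes the factor that drives these genes, had 455, 403 and 267 CPM at 22 °C and 468, 818 and 519 CPM at 34 °C, and Fasn, the fatty acid synthase, had 472, 639.6 and 472 CPM at 22 °C and 418, 1575 and 548 CPM at 34 °C without a call. Pnpla3, a lipase that SREBP1 induces, had 0.188, 0.463 and 0.884 CPM at 22 °C and 0.412, 4.62 and 0.42 CPM at 34 °C. In each of these 4 genes 34 °C library 2 was the highest of all libraries. Without that library no gene of the list was called higher and 1 was called lower, and the log2 fold change of Scd1 was 0.51 and that of Srebf1 0.40. The number called was 12 without 34 °C library 1, 8 without 34 °C library 3 and 1 or 2 without a 22 °C library. Acsl3, Scd3 and Scd4 were the other calls, and with scaling by library size only the count was 2.

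Glucose metabolism showed 1 call upward and 2 downward of 22 genes, beside 1.77% and 1.61% of all genes, with a median of 0.10. Ppp1r3g, a glycogen-targeting subunit of protein phosphatase, had 8.51, 7.88 and 2.9 CPM at 22 °C and 8.75, 73.3 and 15.2 CPM at 34 °C, and without 34 °C library 2 it was not called (0.90 on the log2 scale). Gpd1 and Gpd2 were called lower, Gpd1 not without 22 °C library 3 or 34 °C library 3. Pck1 and G6pc, of glucose production, were not called, at -0.12 ± 0.27 and -0.31 ± 0.38. No gene of 22 in cholesterol synthesis was called by edgeR's quasi-likelihood test, its exact test or DESeq2, though 3 had an unadjusted p of at most 0.05. Without 34 °C library 1, 3 were called higher, and without 34 °C library 2, 3 were called lower.

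Immediate early genes, which respond within minutes to signals such as feeding, stress or handling, had 10 members called higher and 1 lower of 24 tested, with a median log2 fold change of 0.57, beside 1.77% called higher and 1.61% lower over all genes. Dusp1, a phosphatase of MAP kinases, was the member with an adjusted p under 0.05 and had 34.7, 34.3 and 46.7 CPM at 22 °C and 65.7, 81.4 and 75.7 CPM at 34 °C (log2 fold change 0.94 ± 0.14 (SE), adjusted p = 0.0339). Fosl2, Fos, Arid5a and Gadd45b did not overlap between the groups either, at 0.72, 0.86, 1.13 and 1.98. In other called genes a single library at 34 °C stood far above the rest. Nr4a1, a nuclear receptor gene, had 1.72, 7 and 4.08 CPM at 22 °C and 10.1, 63.3 and 6.79 CPM at 34 °C, and Atf3 had 0.4, 1.39 and 0.884 CPM at 22 °C and 1.5, 8.42 and 0.734 CPM at 34 °C, both highest in library 2. Myc had 2.84, 7.66 and 2.7 CPM at 22 °C and 4.02, 5.95 and 56.9 CPM at 34 °C and Gadd45g had 2.91, 11.5 and 4.99 CPM at 22 °C and 13.7, 21.8 and 105 CPM at 34 °C, both highest in library 3. The groups of Gadd45g did not overlap, and its log2 fold change went from 2.86 to 1.46 without library 3, where it was still called. That of Nr4a1 went from 2.66 to 0.99 without library 2, where Nr4a1 was not called. Fos, Fosl2 and Atf3 were not called without 34 °C library 2 either, and the log2 fold change of Atf3 was then 0.35. Fos and Atf3 also lost their calls without 22 °C library 1, and Atf3 without 22 °C library 3 and with DESeq2. Without single libraries 7 to 13 members of the list were called higher. Egr1, the exception, was lower in every 34 °C library, with 35.4, 91 and 54.1 CPM at 22 °C and 15.1, 24.6 and 30.4 CPM at 34 °C (log2 fold change -1.36 ± 0.35 (SE), unadjusted p = 0.00354, adjusted p = 0.196).

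**Figure D4:**
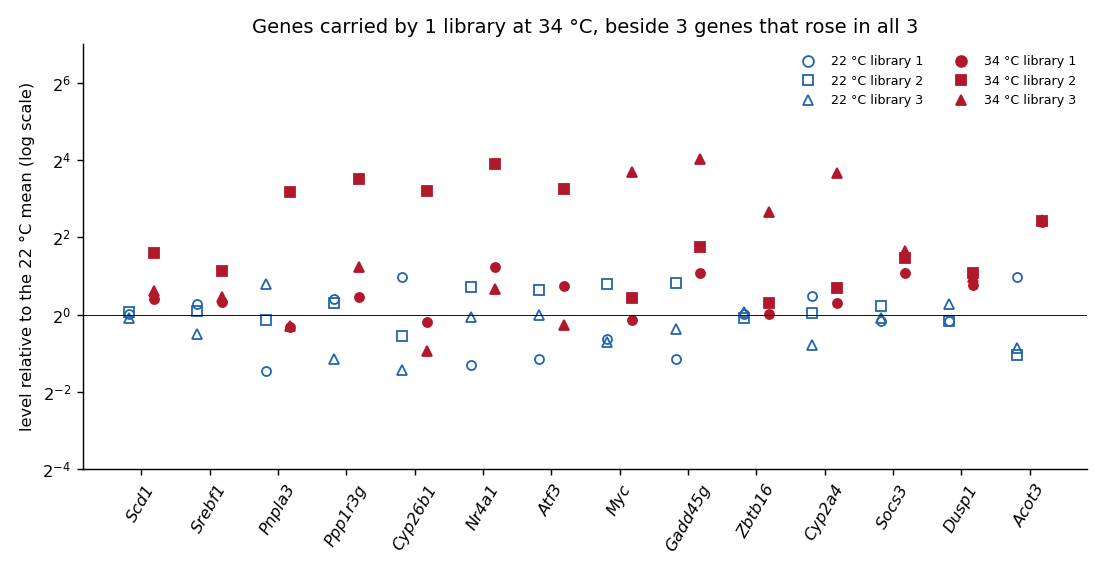
Level of 14 genes in each library divided by the gene's mean at 22 °C, on a log axis. Symbols mark the library number, open blue at 22 °C and filled red at 34 °C. Scd1, Srebf1, Pnpla3, Ppp1r3g, Cyp26b1, Nr4a1 and Atf3 are highest in 34 °C library 2 and Myc, Gadd45g, Zbtb16 and Cyp2a4 in 34 °C library 3, while in Socs3, Dusp1 and Acot3 the 3 libraries at 34 °C lie together.

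Of 23 chaperones and other folding genes of the endoplasmic reticulum tested, 3 were called lower and none higher, beside 1.61% and 1.77% of all genes, with a median log2 fold change of -0.21. Sdf2l1, a stress-induced partner of the chaperone BiP, had 22, 27.3 and 29.4 CPM at 22 °C and 9.89, 15.2 and 8.47 CPM at 34 °C (log2 fold change -1.23 ± 0.21 (SE), adjusted p = 0.0669). Derl3, of the degradation machinery, had 15.1, 3.52 and 13.6 CPM at 22 °C and 1.24, 3.39 and 1.26 CPM at 34 °C, so 22 °C library 2 lay near the 34 °C range. Creld2 was called with overlapping groups. Hspa5, which encodes BiP itself, had 572 ± 125 CPM at 22 °C and 572 ± 172 CPM at 34 °C (SD, n = 3). Without 34 °C library 2 the count of 3 became 5, and with scaling by library size only 4. It became 2 with DESeq2 and without 22 °C library 2 or 3 or 34 °C library 1 or 3. In each of the settings with a count of 2, Creld2 lost its call.

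Of 25 heat shock chaperones of the cell outside the endoplasmic reticulum tested, 2 were called lower and 1 higher, beside 1.61% and 1.77% of all genes, with a median of -0.18. Hspa1b had 1.39, 9.35 and 9.48 CPM at 22 °C and 2.35, 1.33 and 1.89 CPM at 34 °C, so 22 °C library 1 was at the 34 °C level. Hsp90aa1 had 66.3, 121 and 94.7 CPM at 22 °C and 50.1, 68.3 and 50.7 CPM at 34 °C. Neither was called without 22 °C library 2, and 4 members were called lower without 22 °C library 1. Bag2 was the call upward, at 0.91, and was lost without 22 °C library 2 or either of 34 °C libraries 1 and 2. The cold-inducible RNA-binding protein gene Cirbp had 26.9, 13.9 and 22 CPM at 22 °C and 25.8, 25.8 and 27 CPM at 34 °C. Rbm3, of the same kind, had 35.7, 26.8 and 23.3 CPM at 22 °C and 28, 23.4 and 27.9 CPM at 34 °C. None of the 3 genes of this kind was called by edgeR's quasi-likelihood test, its exact test or DESeq2, though 1 had an unadjusted p of at most 0.05.

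Other groups had few calls, to be set beside the 1.77% of all genes called higher and 1.61% called lower. Among 15 ATF4 targets, Vldlr, the very low density lipoprotein receptor, was called, with 1.22, 0.599 and 0.835 CPM at 22 °C and 4.82, 6.85 and 3.38 CPM at 34 °C (log2 fold change 2.49 ± 0.34 (SE), adjusted p = 0.0284). Of 20 clock genes, Csnk1e and Rora were called higher, at 0.60 and 0.62, with a count of 4 without 34 °C library 3 and of 1 without 22 °C library 2 or 3. With scaling by library size only, no clock gene was called. Nr1d1, Per2 and Arntl were not called, and 34 °C library 3 had the lowest Nr1d1 and the highest Per2 of all libraries (153, 162 and 221 CPM at 22 °C and 222, 176 and 64.3 CPM at 34 °C for Nr1d1). Of 25 acute phase genes, Orm2 and Bcl3 were called lower with overlapping groups, and neither was called without 22 °C library 2. Saa1 varied within groups, with 38.9, 141 and 82.8 CPM at 22 °C and 27.2, 30.7 and 85.7 CPM at 34 °C. Col15a1 and Col12a1 were the 2 calls among 20 collagen and matrix genes, both lower, at -1.50 and -1.39. Of 25 MHC and interferon genes H2-Q5 was called, at 0.71, a gene with close copies, and lost its call without 22 °C library 1 or 3 or 34 °C library 1 or 2. The medians of these lists lay between -0.18 (collagen and matrix) and 0.30 (clock).

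Another 7 of the named genes had an adjusted p under 0.05 and belonged to none of these groups. Hsd17b6, a hydroxysteroid dehydrogenase, had 182, 109 and 135 CPM at 22 °C and 412, 281 and 327 CPM at 34 °C (log2 fold change 1.26 ± 0.20 (SE), adjusted p = 0.0451). Cyp46a1, a cholesterol hydroxylase best known from brain, had 3.08, 3.35 and 2.63 CPM at 22 °C and 10.2, 7.72 and 6.32 CPM at 34 °C. Vegfb, a vascular growth factor, had 11.3, 10.9 and 12.3 CPM at 22 °C and 22.4, 18 and 24.1 CPM at 34 °C, and Csrnp1, a nuclear protein gene, 15, 11.8 and 12.3 CPM at 22 °C and 20.1, 23.3 and 23.6 CPM at 34 °C. Acsm2, a medium-chain acyl-CoA synthetase, had 2.12, 1.66 and 1.6 CPM at 22 °C and 0.388, 0.241 and 0.577 CPM at 34 °C, and the transcript 9030619P08Rik 9.07, 7.38 and 5.26 CPM at 22 °C and 0.679, 1.07 and 0.734 CPM at 34 °C. BC089597 was higher by 0.66 on the log2 scale. These 7 were picked by a rule that required groups without overlap, so their lack of overlap is no separate result.

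The study lists 10 genes for their change across tissues at 34 °C. Those listed for liver were chosen on these samples, so their direction here is not independent evidence. Scd1 is among those listed as lower in fat depots, ileum and quadriceps, and not for liver. Of the 9 that passed the filter in liver, Scd1 and Zbtb16 were called higher and Tlcd2 lower. Tlcd2, a lipid-related membrane protein gene, had 68.4, 83.7 and 83.7 CPM at 22 °C and 47.5, 53.3 and 37.6 CPM at 34 °C (log2 fold change -0.77 ± 0.14 (SE), adjusted p = 0.0808). Zbtb16, a transcription factor gene, had 6.56, 6.05 and 6.83 CPM at 22 °C and 6.52, 8.05 and 41 CPM at 34 °C. Without 34 °C library 3, the highest, its log2 fold change was 0.17 and it was not called. The call was also lost without each 22 °C library in turn, with DESeq2 and with the replicate block. Lonrf3 had 5.85, 2.86 and 1.11 CPM at 22 °C and 3.49, 4.48 and 12.7 CPM at 34 °C and Cyp26b1, which degrades retinoic acid, 1.95, 0.681 and 0.368 CPM at 22 °C and 0.873, 9.25 and 0.525 CPM at 34 °C. Both were highest in a single 34 °C library and neither was called. The study lists Lonrf3 as higher in liver among other tissues, and Cyp26b1 as higher in every tissue but brain. Without 34 °C library 1 the count called higher was 4. Pfkfb3, of glycolysis, had 26.7, 58.6 and 19.7 CPM at 22 °C and 26.2, 10.7 and 22.1 CPM at 34 °C. It was not called here, while the study lists it as lower in liver among other tissues.

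The series also holds liver from mice kept at 10 °C for 2 weeks reached in steps, 3 libraries of 2 pooled mice each, with its own 22 °C group of 3, both 11 weeks old at the end, and 16243271 to 22164263 counts per library. That experiment used mice of another supplier, another library kit and another instrument. Levels are therefore not compared between the experiments, except for some Mup copies below, and each change is against its own 22 °C group. There 89 of 12026 genes tested (0.740%) were called higher and 306 (2.54%) lower at 10 °C. The change at 34 °C minus that at 10 °C was tested for 11486 genes in 1 fit of all 12 libraries, and 6 genes (0.0522%) had an adjusted p under 0.05: Ces2c, Dio1, Hectd2, Mup2, Mup13 and Rarres1. All 6 were lower at 34 °C. Hectd2, a ubiquitin ligase gene, is named after its values were seen and was the 1 of the 6 called higher at 10 °C. The number rested on single libraries. It was 0 without 22 °C library 2 or 3 or 34 °C library 1 of the warm experiment, and 11 without 34 °C library 2. Of the cold experiment, it was 0 to 3 without any 10 °C library or 22 °C library 1 or 2, and 55 without 22 °C library 3.

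Dio1 had 299, 244 and 276 CPM at 22 °C and 174, 205 and 201 CPM at 10 °C in the cold experiment, a log2 fold change of -0.50 ± 0.10 against -3.82 at 34 °C, and the difference of the changes was -3.30 ± 0.46 (SE), adjusted p = 0.0279. So Dio1 was below its 22 °C group at both temperatures, without a call at 10 °C, where the change was under 1.5-fold. Ces2c had 74.7, 72.9 and 73.5 CPM at 22 °C and 57.6, 59.8 and 56.1 CPM at 10 °C, and the difference of the changes was -0.91 ± 0.11 (SE), adjusted p = 0.0222. Rarres1 had 100.1, 98.6 and 91.9 CPM at 22 °C and 76.8, 74.9 and 72.9 CPM at 10 °C (difference -1.001 ± 0.16 (SE), adjusted p = 0.0499). Mup2 and Mup13 changed by -0.43 and -0.41 at 10 °C, and the differences were -3.45 ± 0.49 (SE), adjusted p = 0.0281 and -3.48 ± 0.47 (SE), adjusted p = 0.0279. Mup7, Mup14 and Mup1 changed by -0.29, -0.53 and -0.53 at 10 °C, none called, and their differences had adjusted p of 0.139, 0.115 and 0.118. Of the 18 Mup genes tested in the cold experiment 4 were called lower at 10 °C and none higher, with a median log2 fold change of -0.42. They were Mup9 (-1.25), Mup16 (-1.07), Mup8 (-0.82) and Mup17 (-0.78). Counts of some single copies lay far apart between the experiments even at 22 °C. Mup17 had a mean of 0.0951 CPM in the warm and 2684 CPM in the cold experiment, Mup9 5.36 and 206 CPM and Mup2 2.68 and 11.8 CPM. For Mup13 these were closer, 2.36 and 3.5 CPM. The value of a single copy may come from different reads in each experiment, so the differences for single Mup genes are uncertain.

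Slc22a7 was called lower at both temperatures, with 106, 68.4 and 82 CPM at 22 °C and 47.4, 50.7 and 33 CPM at 10 °C in the cold experiment, and its difference between the changes was -0.99 ± 0.25 (SE), adjusted p = 0.16. Hsd17b6 and Hamp2 were called higher at both, by 0.68 and 0.93 at 10 °C, where their adjusted p were 0.0941 and 0.175. Hamp2 was low in the cold experiment, with means of 1.34 CPM at 22 °C and 2.58 CPM at 10 °C. Derl3 had opposite signs, -2.44 at 34 °C and 1.74 at 10 °C, with a call in each, and the difference was -4.17 ± 0.98 (SE), adjusted p = 0.16. Its 10 °C libraries overlapped the 22 °C ones, with 1.87, 4.76 and 1.13 CPM at 22 °C and 8.96, 2.29 and 14.3 CPM at 10 °C. Socs3 and Vldlr, both called higher at 34 °C, changed by -0.35 ± 0.34 and -0.42 ± 0.61 at 10 °C without a call. Their differences had adjusted p of 0.16 and 0.185.

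**Figure D5:**
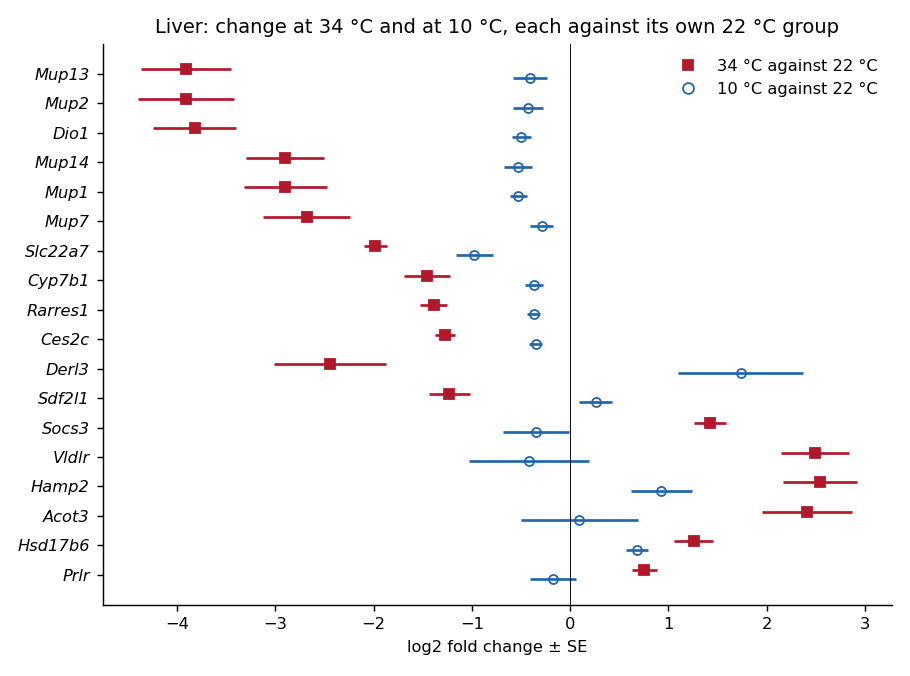
Log2 fold change with its standard error (x axis) for 18 named genes in liver at 34 °C (filled squares) and at 10 °C (open circles), each against its own 22 °C group of 3 libraries. Dio1 and the Mup genes lie far lower at 34 °C than at 10 °C, while Derl3 lies on opposite sides of 0.

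Ileum, brain and brown adipose tissue (BAT) of the 34 °C experiment allow a test of whether a gene changed by another amount in liver than in that tissue. In 1 fit of 24 libraries and 15044 genes, the liver change differed from the ileum change for 26 genes (0.173%), from the brain change for 3 (0.0199%) and from the BAT change for 1783 (11.9%), at an adjusted p under 0.05. The 3 genes that differed from the brain, Moxd1, Nucb2 and Vldlr, also differed from the other two tissues. Nucb2, which encodes the precursor of nesfatin and is named after its values were seen, had 7.08, 5.4 and 5.7 CPM at 22 °C and 1.96, 2.14 and 1.42 CPM at 34 °C in liver (log2 fold change -1.71 ± 0.22 (SE), adjusted p = 0.0227). In the same joint fit its log2 fold change was 0.19 in ileum, 0.20 in brain and 0.88 in BAT. That of Moxd1 was 0.90, 0.02 and 0.35, and that of Vldlr 0.56, -0.0097 and -0.23. In this fit all tissues share 1 estimate of the spread per gene, and the libraries were treated as independent although organs may come from the same mice.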

How the data were processed

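Liver RNA of mice housed at 34 °C or at 22 °C was sequenced as single reads of 50 bases, 3 libraries of 2 pooled mice per group. The authors aligned the reads to mm10 and counted them per gene with HTSeq, and the submitters' processing notes name STAR 2.5.3a, Picard 1.141 and HTSeq 0.6p1. The deposited values are raw counts, whole numbers without scaling, and neither alignment nor counting was repeated. Near-identical genes share reads that such counting may drop or split. The labels' treatment text names 34 °C for every sample, so groups come from the titles and treatment tags. The table's column names show the group and a number but not which labelled sample, and 12 columns of quadriceps were left out.

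Counts were scaled with TMM in edgeR 4.0.16 (R 4.3.3), genes averaging over 0 on the log2 CPM scale were retained, and the effect of temperature was assessed by the quasi-likelihood F-test with Benjamini-Hochberg adjustment across every gene tested. Calls used the study's limits, 0.05 for the unadjusted p and 1.5 for the fold change. Standard errors of log2 fold changes come from the fit, and reads carry no molecular barcodes. Nothing says whether the pools come from separate cages, so p-values measure only the spread between these libraries. Summed marker levels were compared with an exact permutation test. Symbols of the warm table were joined to Ensembl genes of the cold table through GENCODE M21 (21712 by symbol, 1256 through an older symbol, 425 not matched). The scripts were tested on simulated data. The gene lists, the named genes and the comparisons were chosen with earlier results of these data known. Named genes are the 12 largest rises and 12 largest falls among genes whose adjusted p is under 0.05 and whose groups are apart, up to 6 called members of each list by p, a set of well-known liver genes and every Mup gene. Alternatives were edgeR's exact test, DESeq2 1.42.0, scaling by library size or upper quartile, filterByExpr, all genes of more than 1 count, the Mup genes left out or summed, a shared dispersion, a replicate block and leaving out each library.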

Additional observations from a re-analysis of the deposited data

Results flagged for a closer look

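Liver changes at 34 °C were set against those in ileum, brain and BAT of the same experiment. The difference itself was tested (edgeR's quasi-likelihood test, adjusted over 15044 genes). Given here are the genes that differed from ileum, brain and BAT alike at an adjusted p under 0.05. Of the genes the study lists across tissues, those that differed from any of these tissues are given too. Other named genes were not screened here for a difference from a single tissue. The change of Moxd1 in liver minus that in ileum was -8.76 (adjusted p = 0.000301) on the log2 scale, minus that in brain -7.89 (adjusted p = 0.00084) and minus that in BAT -8.22 (adjusted p = 3.62e-05). For Nucb2 these differences were -1.91 (adjusted p = 0.00152), -1.91 (adjusted p = 0.000939) and -2.59 (adjusted p = 2.86e-06). For Vldlr they were 1.94 (adjusted p = 0.0247), 2.502 (adjusted p = 0.00084) and 2.72 (adjusted p = 1.27e-05). Scd1 differed from BAT, by 2.73 (adjusted p = 0.0403), where its log2 fold change in the joint fit was 0.96 in liver and -1.77 in BAT. The Scd1 level in liver was highest in 34 °C library 2, and the part of that library in this difference was not tested. Groups of 3 libraries are too small for a test of single outlying libraries.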

How the results depend on the processing

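The 378 calls at 34 °C (198 higher, 180 lower) changed most with the filter and the threshold. With every gene of more than 1 count they were 348 and 271, and with an adjusted p in place of the unadjusted p 13 and 30. The 43 genes with an adjusted p under 0.05 became 225 with edgeR's exact test, 286 with DESeq2, 142 with the dispersion shared over 4 tissues, and 27 with the Mup genes left out or summed. All 43 were among those of the exact test and of DESeq2. Of the 43, 27 were among the 142 of the shared dispersion, a fit in which some of the 43 had no value. Without a single library the number of such genes was 6 to 45, and 6 to 30 of the 43 were among them. The column number as a replicate block gave 13 such genes, with 178 genes called higher and 176 lower. At 10 °C the replicate number of the labels as a replicate block moved neither count by over 1.5 times. Deviations from the group means correlated between same-numbered libraries by -0.110 to 0.0510 at 34 °C and by -0.342 to 0.0477 at 10 °C. No 34 °C or 10 °C library correlated best with the 22 °C library of its own number. For 34 °C library 2 the best value was 0.0520 against 0.0510. Groups of 3 libraries are too small to tell whether the numbers mark pairs. At 10 °C, 89 genes were called higher, 55 with scaling by library size only, 134 with every gene of more than 1 count and 51 to 200 without a single library. The 6 genes whose change differed between 34 °C and 10 °C were 0 to 55 without a single library. The liver and BAT changes differed for 3432 genes with library size only, against 1783. Scaling by library size only moved the median log2 fold change by -0.070 and the split at 34 °C to 135 higher and 235 lower. Of 96 named genes called at 34 °C, 60 kept their call in every alternative that gave them a value and 62 without each library in turn where they had one. Of the 96, 16 had no value in at least 1 alternative (11 of them Mup genes) and 3 (Acsm2, Cyp2b9 and Slc13a5) without at least 1 library, which left 45 and 59 that kept their call with a value throughout, and no named gene called changed direction. The most were lost without 22 °C library 3 (21) and 34 °C library 2 (20). With 3 libraries of 2 pooled mice per group, the spread between single mice is unknown.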
